A study of Bos taurus with 12 samples.

Results

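Of the 10239 m6A peaks that were shared one to one between bovine myoblasts and myotubes, 2607 (25.5%) were named in an exon before the last exon of their transcript. A member is a pair of exactly 1 peak of the myoblast list and 1 peak of the myotube list whose exon blocks overlapped by at least 1 base, with the strand of the listed gene the same in both, and whose myotube peak was annotated to an exon other than the last. The members lay in exons of 2205 genes on the 29 autosomes. Primary myoblasts came from the longissimus dorsi of 1 newborn Qinchuan calf and were collected in growth medium (GM) or after 4 days in differentiation medium (DM), where horse serum replaces the fetal bovine serum and the cells are called myotubes. Each group had 3 input libraries and 3 libraries after immunoprecipitation (IP) with an m6A antibody, 12 in all. No agent or genetic change was applied to either group. GM and DM differ in medium, serum and time together, so these cannot be told apart. The replicates of a group are called biological repeats in the methods, which name 1 animal, and whether they were separate cultures is not stated, so p-values measure only the spread between these libraries, which may be technical.

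N6-methyladenosine (m6A) is laid down on mRNA during transcription by a complex built around METTL3 and METTL14, and it is read by proteins of the YTH family and removed by FTO and ALKBH5. Most m6A of animal mRNA lies in the last exon and around the stop codon. Exon junction complexes, which are deposited upstream of each splice junction, keep the methylation machinery away from short internal exons, and m6A before the last exon is known chiefly from long internal exons. Fold enrichment is the ratio of IP over input reads in a peak. It was given once for each list, from the pooled libraries of the group, so it has no replicate error and no test is attached to any m6A value below. Because genes with a myotube peak in an exon before the last were chosen by annotation, and because the pair needs a peak in both lists, the presence of the peaks is what selected them and is not a result.

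Cultures carried the markers of muscle cells. Of 8 tested genes of contractile myotubes, 8 rose in DM, among them the embryonic myosin MYH3. Here a rise or fall is an adjusted p under 0.05 (limma on log2(FPKM + 1), Benjamini-Hochberg) with a change over 1.5-fold. Of 9 tested genes of myogenic cells, 0 rose and 3 fell, where 4.89% of all genes tested rose and 6.88% fell. At an unadjusted p under 0.05 alone (limma), 3 were higher and 4 lower. The satellite cell gene PAX7 fell from 1.08 ± 0.097 to 0.0624 ± 0.034 FPKM (SD, n = 3 each). MYF5 fell from a mean of 11.8 to 2.25 FPKM and MYOD1 from 61.6 to 24.8 FPKM. In GM, MYH3 already had a mean of 273 FPKM and MYOG 197 FPKM, with 659 and 243 FPKM in DM. The 8 fibroblast markers summed to 10323 to 10465 FPKM in GM and 11728 to 12308 FPKM in DM, and 1 of them, FAP, rose by this rule. At an unadjusted p under 0.05 alone (limma), 4 of the 8 were higher and 1 lower. Endothelial, adipocyte and leukocyte markers summed to at most 2.78 FPKM in any input, with means of CDH5, LEP and TYROBP of at most 0.0261 FPKM. Others of these lists were higher, with CIDEC at a mean of 0.127 FPKM in GM and 0.796 FPKM in DM, FABP4 at 0.106 and 0.578, PLIN1 at 0.870 and 0.985 and CD68 at 1.17 and 1.47, and ERG rose by 0.92 on the log2 scale. Smooth muscle and pericyte markers summed to 2220 to 2692 FPKM in GM and 1780 to 2052 FPKM in DM, mostly from ACTA2, with NOTCH3 lower in DM and MYH11 at 0.561 FPKM or less. The 3 Schwann cell markers in the table summed to 9.28 to 11.3 FPKM, nearly all from S100B, and none passed the test. The part of these cells in the m6A values was not tested, and fewer cells of a type and less RNA per cell cannot be told apart in these bulk samples.

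The name of the exon did not give the extent of the peak. Peaks are listed as exon blocks joined across introns, and the median member covered 3 blocks and 480 bases of exon in DM and 2 blocks and 360 bases in GM. Where the position of a named exon could be read from a peak of 1 block in either list, it was the first block of the longer peak in the direction of transcription in 348 of 377 peaks (92.3%) and the last block in the other 29. A peak named in exon N with several blocks therefore mostly ran towards the 3′ end. Counted this way, 873 members (33.5%) had enough blocks in DM to reach the last exon of the transcript, and 1734 did not. Of the 457 members named in the exon next to the last, 322 (70.5%) had exactly 2 blocks. Of 394 named 2 exons before the last, 233 (59.1%) had exactly 3 blocks, and of 237 named 3 exons before it, 116 (48.9%) had exactly 4. In GM, 155 of the members were named in the last exon itself, and 151 of those were among the 873. The count assumes that the named exon is the first block and that the peak skips no exon. Of the 873, 794 had exactly enough blocks. The other 79 had more blocks than there are exons from the named exon to the last, so the count cannot hold for them on the named transcript. The count leaves 516 members of 1 block and 1218 members of several blocks short of the last exon. By this count, the DM peaks of these 1734 members lie before the last exon, while the GM peak of some of them, such as KIFC1, was named in the last exon or the 3′UTR.

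**Figure D1:**
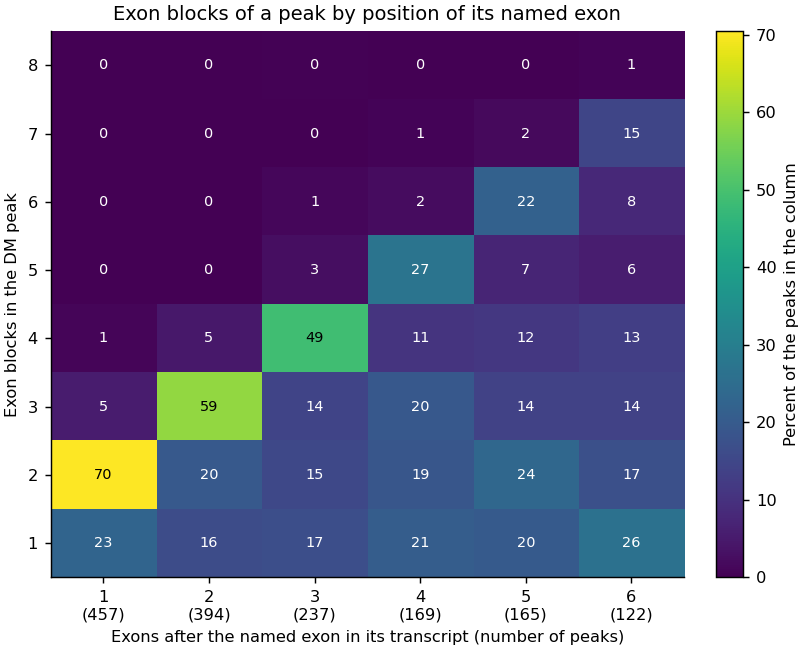
Percent of members by number of exon blocks of the DM peak (vertical axis) for peaks named 1 to 6 exons before the last exon (horizontal axis, number of peaks in brackets). The highest share of each of the first 4 columns, from 70.5% to 27.2%, stands at the block count that just reaches the last exon.

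Members confined to 1 block were long compared with the exons that other members spanned. An inner block of a peak of several blocks is a stretch of exon with a splice junction at both ends, and the 3793 inner blocks of the DM peaks had a median of 120 bases (quartiles 83 and 171). The 516 peaks of 1 block had a median of 297 bases (quartiles 150 and 517), which is the least that their exons can measure. Of these peaks, 360 (69.8%) were longer than the upper quartile of the inner blocks, and 183 (35.5%) covered 400 bases or more, against 265 (6.99%) of the inner blocks. Both sets come from peaks of the same list, in which a short exon makes a peak more likely to cross a junction, so the difference in length is partly set by that definition. Of the 516 peaks of 1 block, 180 were named in exon 1. That exon has no junction upstream, so these 180 are not in internal exons as the inner blocks are.

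**Figure D2:**
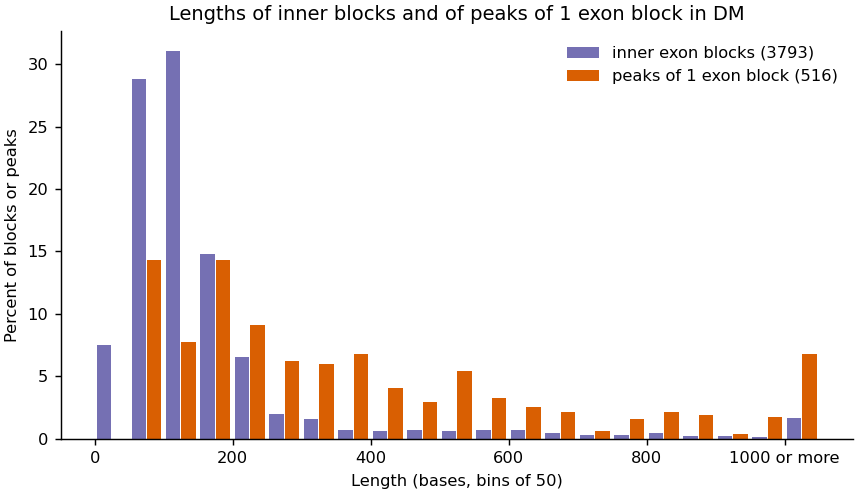
Percent of inner exon blocks and of peaks of 1 exon block in the DM list (vertical axis) by length in bins of 50 bases (horizontal axis, the last bin holding 1000 bases or more). Inner blocks cluster around their median of 120 bases, and the peaks of 1 block spread to 400 bases and more.

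The longest peaks lying in 1 exon block in both lists show what such an exon looks like. They were picked after their lengths were seen. In MAP1B, which encodes a microtubule-associated protein, the peak in exon 5 of 7 (chr20:9412605-9416293 in ARS-UCD1.2) covered 3689 bases in DM and 3599 bases in GM, with a fold enrichment of 4.26 in GM and 4.45 in DM. LMTK2, a kinase gene, had a peak of 2398 bases in exon 11 of 14, enriched 5.60-fold in GM and 6.08-fold in DM. PPRC1, which encodes a transcriptional coactivator related to PGC-1, had a peak of 2127 bases in exon 5 of 14 in both lists, enriched 4.13-fold and 4.39-fold. These 3 pairs differed between the lists by 0.12 or less on the log2 scale. The peak in exon 6 of 13 of PRG4, the gene of the joint lubricant lubricin, covered 2367 bases in DM and was enriched 21.8-fold in GM, a value on one of the steps described with the ratios, and 10.1-fold in DM.

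Taken over all genes, members were less enriched than the shared peaks of other regions. Median fold enrichment of the 2607 members was 2.69 in GM and 2.80 in DM, compared with 3.75 and 3.96 in 5146 pairs of the 3′UTR, 3.51 and 3.83 in 1882 pairs of the 5′UTR, and 3.53 and 3.81 in 604 pairs of the last exon. Within the class the level was highest for peaks with enough blocks to reach the last exon. It was 2.58 in GM and 2.47 in DM for peaks of 1 block, 2.44 and 2.46 for several blocks short of the last exon, and 3.20 and 3.56 for peaks with enough blocks to reach it. The boundary of the rule showed the same order, with medians of 3.14 and 3.53 in the exon next to the last, just inside, and 3.53 and 3.81 in the last exon, just outside. Members in exon 1, of which there were 653 (25.0%), had medians of 3.27 and 3.48, and those in exons between the first and the next to last had 2.51 and 2.56. Within genes, the strongest member was set against the strongest shared peak of another region. In 518 genes (23.5% of the member genes) the 3′UTR peak was the higher in 374 (72.2%) in GM and 409 (79.0%) in DM. The 5′UTR peak was the higher in 137 of 225 genes (60.9%) in GM and 145 (64.4%) in DM. For the last exon this held in 38 of 76 genes (50.0%) in GM and 37 (48.7%) in DM.

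The share of peaks that found a partner differed by region and list. Of 6009 DM peaks named in exons before the last, 2607 (43.4%) formed members, 2047 (34.1%) overlapped no GM peak, and 1355 joined groups of more than 2 peaks. Of the 9409 DM peaks of the 3′UTR, 5146 (54.7%) were in pairs and 2328 (24.7%) overlapped no GM peak, while of the 1578 DM peaks of the last exon 604 (38.3%) were in pairs and 613 (38.8%) overlapped none. In the GM list, 19.1% of peaks in exons before the last overlapped no DM peak, compared with 17.0% in the last exon, 18.1% in the 5′UTR and 9.71% in the 3′UTR. The overlap of the members themselves ranged from a single base, shared by 45 pairs, to identical extents in 168 pairs, with a median of 300 shared bases. The peak was longer in DM in 1693 members (64.9%), compared with 67.0% of all pairs.

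Of the 6 members with the highest enrichment in both lists, 4 began in exon 1. AEBP2, which encodes a cofactor of the Polycomb repressive complex PRC2, had a peak beginning in exon 1 of 9 (chr5:90500042-90530352) with a fold enrichment of 62.3 in GM and 49.0 in DM over 957 and 927 bases. FBXW4, an F-box protein gene, followed with 26.0 and 32.7 for a peak beginning in exon 1 of 9. KLHDC4 had 25.6 and 20.5 from exon 9 of 12, and FAM98B, whose product belongs to the tRNA ligase complex, had 18.6 and 22.2 from exon 4 of 8. The unnamed genes ENSBTAG00000051225 (24.5 and 29.3) and ENSBTAG00000052785 (20.7 and 33.0) both have 2 exons in their transcript. The 49.0 of AEBP2 and both values of ENSBTAG00000052785 lay on such steps. Rounding alone would place 10.1% of GM values and 10.3% of DM values of 10 or more on a step. ENSBTAG00000052785 had a mean of 0.350 FPKM in GM and 0.430 FPKM in DM. AEBP2 mRNA measured 10.02, 10.9 and 8.98 FPKM in the GM inputs and 10.4, 9.06 and 10.5 FPKM in the DM inputs, so the groups overlapped and the gene was not called (log2 fold change 0.01, SE 0.08, limma adjusted p = 0.969).

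Several genes carried strings of members. Of the 2205 genes, 1887 had 1 member, 256 had 2 and 62 had 3 or more. CEP164, needed for the docking of centrioles in cilium formation, had 6. ALMS1 and CDK5RAP2, which encode centrosomal proteins, ANKRD17, HIVEP3, SHROOM3, whose product binds actin, and the spectraplakin gene DST had 5 each. The 6 peaks of CEP164 spanned fold enrichments of 1.31 to 5.44 in GM and 1.77 to 7.45 in DM, the highest of both being on a step and short of a false discovery rate of 0.05, and the longest of them, with 13 blocks in DM, measured 5.43 and 5.33. Its mRNA was 2.76, 2.57 and 2.65 FPKM in GM and 2.54, 2.67 and 2.85 FPKM in DM, and the groups overlapped. The 5 peaks of ANKRD17 were ordered alike in both lists, from 7.75 and 7.56 in exon 13 of 34 down to 1.36 and 1.26 in exon 22. HIVEP3 had 3 peaks in exon 3 of 8, at 3.99 and 5.68, 9.80 and 2.84, and 4.20 and 6.03. The second of these pairs shared a single base and the other two were within 1.5-fold, in a gene at a mean of 0.263 FPKM in GM and 0.282 FPKM in DM. Peaks of 1 gene share its input reads and are not independent. In all, 13 of the 318 genes with 2 or more members had 1 peak more than 1.5-fold higher in DM and another more than 1.5-fold lower.

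To compare the groups, the DM over GM ratio of fold enrichment was taken for each pair, and a ratio over 1.5 in either direction was counted as a change. The median log2 ratio of the members was 0.02, against 0.09 in pairs of the 3′UTR and 0.11 in pairs of the 5′UTR. Fold enrichment was higher in DM in 328 members and lower in 246, together 574 (22.0%), compared with 25.0% of all pairs (14.2% higher and 10.8% lower). Higher pairs were thus 57.1% of the changed members. After centring on the median of all pairs, 260 were higher and 295 lower, which is 46.8%, so the direction of the majority changed with the scaling of the lists. The direction also moved with extent, which was set by the blocks of the DM peak alone. Peaks of 1 block were higher in 60 and lower in 85 cases with a median log2 ratio of −0.10. Several blocks short of the last exon gave 110 and 95 with −0.0049, and peaks reaching the last exon by block count gave 158 and 66 with 0.13. In the 422 pairs with 1 block in both lists, 56 were higher and 62 lower, with a median of −0.033. With members chosen by the annotation of the GM peak instead, 374 were higher and 214 lower.

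**Figure D3:**
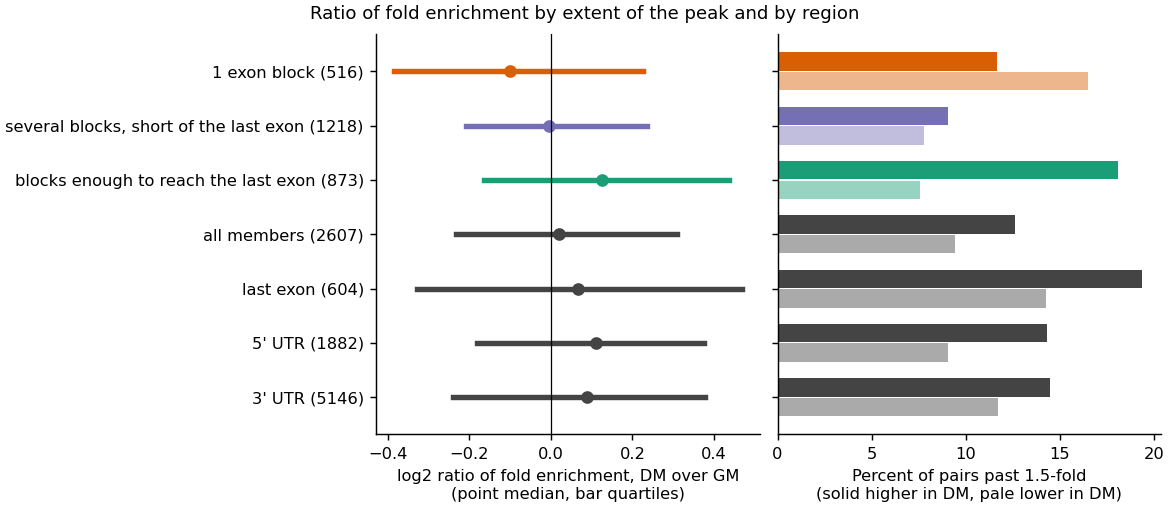
Left, median log2 ratio of fold enrichment, DM over GM, with its quartiles for members by extent and for shared peaks by region (number of pairs in brackets). Right, percent of pairs past 1.5-fold. Peaks of 1 block have a median of −0.10, with more pairs lower than higher, and peaks with enough blocks to reach the last exon a median of 0.13, with more pairs higher than lower.

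The ratio moved with the length of the peak. Of the 328 members higher in DM, 274 (83.5%) had a longer peak in DM, compared with 98 (39.8%) of the 246 lower members and 1321 (65.0%) of the 2033 within 1.5-fold. Pairs of the other regions showed nearly the same shares, 81.2% of the higher and 40.1% of the lower, so this was seen outside exons before the last as well. The annotation of the GM peak moved with it as well. Where the GM peak was named in the last exon and the DM peak before it, 45 of 155 pairs were higher and 11 lower. Where the GM peak was named in the 5′UTR, 2 of 57 were higher and 20 lower. Such pairs compare partly different stretches of RNA.

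The ratio also moved with the level of the gene. Changed members made up 55.3% of the 340 members in genes with a mean under 0.5 FPKM, 35.6% from 0.5 to 2 FPKM, 18.3% from 2 to 10 FPKM and 6.83% of the 835 members at 10 FPKM or more. Median fold enrichment ran the same way, from 6.53 in GM and 6.39 in DM in the lowest class to 2.13 and 2.15 in the highest. The deposited values themselves were stepped. From 3 to 10, 24.6% of all fold enrichments of the GM list were whole multiples of 1.089 to within 0.0055, and 24.4% of those of the DM list whole multiples of 1.065, where other spacings from 0.8 to 1.4 gave a median of 0.696% and 0.693%. A scaled ratio of 2 read counts takes whole multiples of one value when the lower count is 1, and the read counts are not in the lists. A fold enrichment on a step was found in 417 members, among them 245 (72.1%) of those in genes under 0.5 FPKM and 15 (1.80%) of those at 10 FPKM or more. Of these 417, 239 (57.3%) counted as changed, compared with 335 (15.3%) of the other 2190 members.

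**Figure D4:**
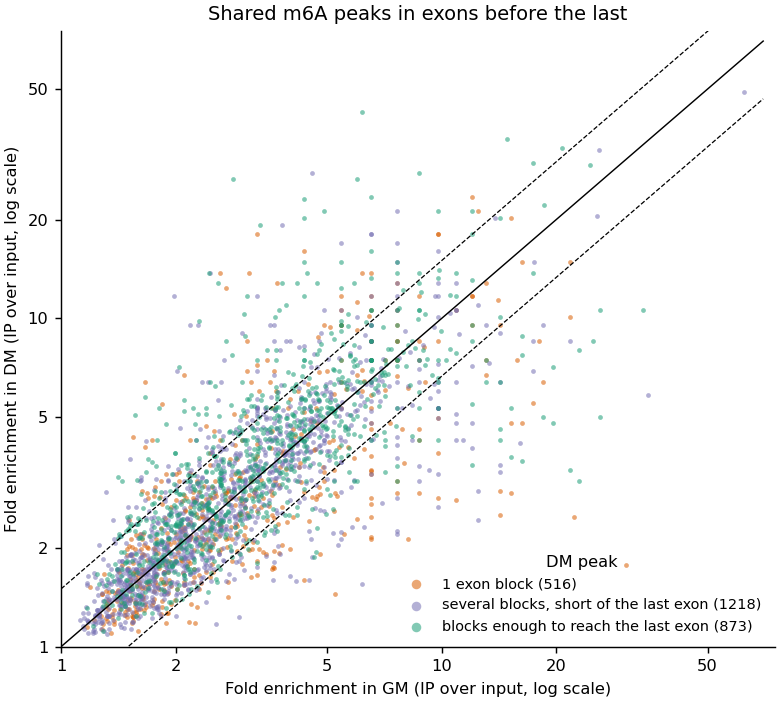
Fold enrichment of each member in GM (horizontal axis) and DM (vertical axis), both on log scales and coloured by extent of the DM peak, with the line of equality and dashed lines at 1.5-fold. Most points lie between the dashed lines, and above a fold of about 6 they fall into columns and rows at the steps described in the text.

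Among the 1723 members with a false discovery rate under 0.05 in both lists and at least 50% of each peak shared, the 10 with the lowest and the 10 with the highest ratio were listed. On a step were 7 of the 10 GM values of the former and 6 of the 10 DM values of the latter. The rounding of values of 10 or more alone would place 10.1% of them on a step in GM and 10.3% in DM. AUTS2, which encodes a nuclear protein linked to Polycomb complexes, had the lowest ratio and was not on a step. Its peak in exon 1 of 11 (chr25:29814494-29814882) went from a fold enrichment of 22.3 to 2.48. The paper lists an overlapping AUTS2 peak with a smaller fall in m6A, by its own comparison. Whether a value off the steps rests on few reads cannot be read here, because the lists hold no read counts. AUTS2 mRNA measured 3.46, 2.51 and 2.48 FPKM in the GM inputs and 6.22, 4.54 and 5.35 FPKM in the DM inputs, so the groups did not overlap, and it rose by 0.74 on the log2 scale (SE 0.13, limma adjusted p = 0.00211). TULP4, also off the steps, went from 16.1 to 4.18 over 2880 bases in GM and 2790 bases in DM. ISG20 (12.5 to 2.43) was off the steps too, at a mean of 0.0926 FPKM in GM and 0.173 FPKM in DM. TMEM8B (34.8 to 5.86), MFSD9 (26.1 to 5.01), the unconventional myosin gene MYO9A (21.8 to 3.46), TCF20, a transcriptional coregulator (14.2 to 2.52), and the adhesion receptor gene ADGRB1 (14.2 to 2.98) stood on a step in GM. So did CPLX4 (18.5 to 5.02) and ENSBTAG00000006864 (16.3 to 3.67).

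The highest ratios were those of ENSBTAG00000048435 (2.83 to 26.6), ENSBTAG00000050269 (3.33 to 19.2), ENSBTAG00000046177 (2.59 to 12.8), TEDC1 (5.99 to 26.6), the cadherin gene CELSR3 (4.36 to 16.0) and B4GALNT2 (3.81 to 12.8), each with a DM value on a step. Off the steps were P2RX7, an ATP-gated channel (2.30 to 9.85), SOGA1 (2.04 to 7.10), the mitotic kinesin gene KIF18B (2.02 to 6.92) and RC3H1, which encodes the RNA-decay protein Roquin (1.56 to 5.09). Of these 10, 8 were peaks with enough blocks to reach the last exon, against 4 of the 10 with the lowest ratio. RC3H1 mRNA was 6.94, 6.95 and 6.71 FPKM in GM and 8.17, 7.41 and 8.91 FPKM in DM. The groups did not overlap, and the difference did not reach 1.5-fold (log2 fold change 0.22, SE 0.07, limma adjusted p = 0.0394).

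The mRNA of member genes was called at a share near that of all genes. Of 1908 member genes whose mean FPKM was 0.5 or more, 103 rose and 112 fell in DM at an adjusted p under 0.05 and a change over 1.5-fold (limma), together 215 (11.3%), compared with 11.8% of all 12302 genes tested (4.89% higher and 6.88% lower). On the TPM scale, which moves the median of all genes by 0.11, 157 of 2052 tested member genes rose and 108 fell, together 12.9%. Of all 13494 genes tested on that scale, 1046 rose and 851 fell, together 14.1%. The input libraries of this test are also the denominator of fold enrichment, so the m6A ratio and the mRNA change of a gene are not independent measurements. A peak changed over 1.5-fold lay in 367 tested genes, of which 55 were also called in mRNA, and nothing is read from that count. Values of the genes with the largest mRNA change among them are given side by side below.

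Of the genes that fell most, ASPM, which encodes a spindle pole protein, measured 4.88, 5.31 and 4.62 FPKM in GM and 0.123, 0.199 and 0.144 FPKM in DM. It fell by 2.36 on the log2 scale (SE 0.08, limma adjusted p = 3.39e-07), and its peak in exon 3 of 29 had a fold enrichment of 3.67 in GM and 6.03 in DM. E2F8, an atypical E2F repressor of the cell cycle, fell from 2.39 ± 0.11 to 0.164 ± 0.066 FPKM (SD, n = 3 each), with peaks at 1.52 and 3.73 in exon 5 and at 2.68 and 7.45 in exon 9 of 13. The first pair missed a false discovery rate of 0.05 in both lists, and the DM value of the second was on a step. CENPE, the kinetochore kinesin, fell from 4.63 ± 0.79 to 0.526 ± 0.041 FPKM (SD, n = 3 each), and its GM and DM peaks, of 1.5 and 2.66, shared a single base. ITIH5, of the inter-alpha-trypsin inhibitor family, fell from 4.96 ± 0.30 to 0.536 ± 0.076 FPKM (SD, n = 3 each), with 1.61 and 3.19, the latter on a step. KIFC1, a kinesin moving towards the minus end of microtubules, fell by 1.89 on the log2 scale and had the lower m6A value in DM, 2.32 against 6.26, but its GM peak ran over 1768 bases into the 3′UTR and the DM peak over 869.

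Of the genes that rose most, GNAS, the gene of the stimulatory G protein alpha subunit, measured 0.746, 0.531 and 0.833 FPKM in GM and 10.98, 14.2 and 10.8 FPKM in DM. It rose by 2.93 on the log2 scale (SE 0.12, limma adjusted p = 8.31e-07), and its peak in exon 1 of 13 had a fold enrichment of 3.27, on a step, in GM and 1.82 in DM. This is the gene entry ENSBTAG00000047223. A second entry under the symbol GNAS, ENSBTAG00000052413, measured 606 ± 16.3 FPKM in GM and 520 ± 6.39 FPKM in DM (SD, n = 3 each), and how the authors' counting split reads between them is uncertain. FILIP1, which encodes a filamin-interacting protein, rose from 1.89 ± 0.22 to 7.69 ± 0.84 FPKM (SD, n = 3 each), with 4.63 and 1.88 in a pair sharing a single base. FAM20A, ENSBTAG00000050644 and HSF4, a heat shock transcription factor gene, rose too, with fold enrichments of 2.96 and 1.92, of 5.44 and 2.13, and of 3.66 and 2.28. The 5.44 of ENSBTAG00000050644 was on a step, and its peaks shared 60 bases. The GM peak of FAM20A was named in the last exon and that of ENSBTAG00000050644 in the 5′UTR. In each of these 10 genes the GM and DM inputs did not overlap, which was true of 54.1% of all genes tested.

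**Figure D5:**
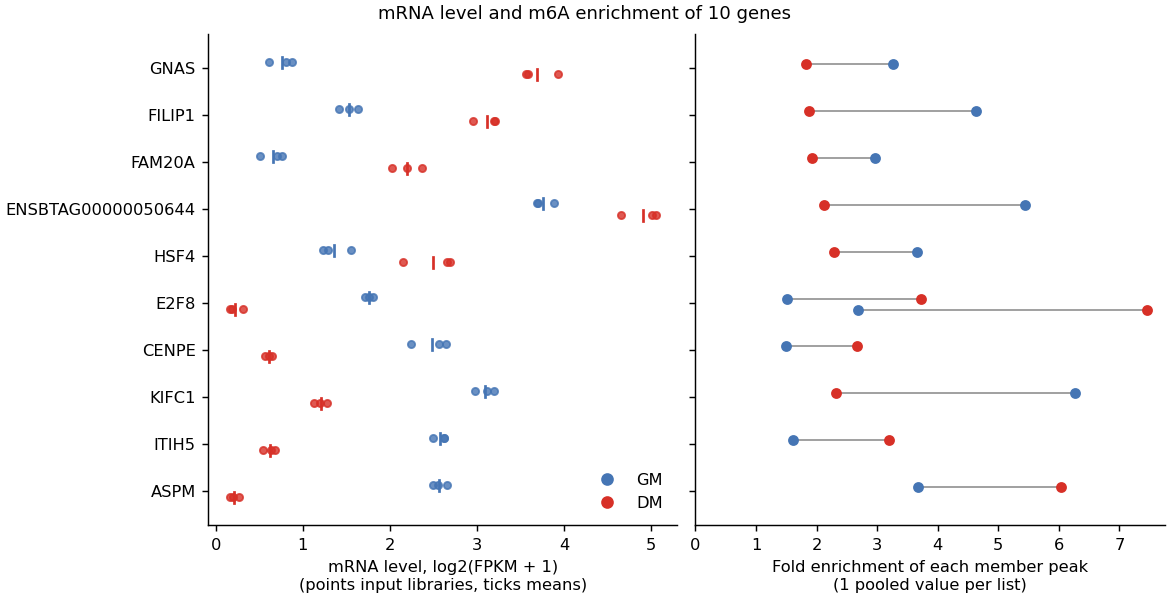
mRNA level of 10 genes in the 3 GM and 3 DM input libraries on the log2(FPKM + 1) scale (left, points, with means as ticks) and fold enrichment of their member peaks in each list (right, 1 pooled value per list). ASPM, ITIH5, CENPE and E2F8 have higher and the 5 genes that rose have lower fold enrichment in DM, and KIFC1 is lower in both panels; both panels rest on the same input libraries.

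By gene group, mitosis and cytokinesis genes had the largest share of mRNA changes. Of 63 tested, 61 fell and none rose (limma; 0 rose and 62 fell at an unadjusted p under 0.05), with a median log2 fold change of −1.78, while over all genes tested 6.88% fell, 4.89% rose and the median was −0.05. The group held 22 members in 19 genes, of which 5 were higher in m6A and 1 lower, with a median log2 ratio of 0.17, where 14.2% of all pairs were higher and 10.8% lower and their median was 0.07. Among the higher were peaks of ASPM, CENPE and KIF18B, whose DM means were 0.156, 0.526 and 0.264 FPKM. The pairs used for comparison were not matched for mRNA level. KIF18B contributed 3 peaks, at 2.02 and 6.92 in exon 8, 2.44 and 6.39 in exon 13 of 16 and 1.88 and 2.77 in exon 11, the last sharing a single base and the 6.39 on a step. Its mRNA fell from 2.31 ± 0.14 to 0.264 ± 0.044 FPKM (SD, n = 3 each). DNA replication and repair genes had 21 members in 16 genes, 5 higher and 0 lower, with a median log2 ratio of 0.31, against the same 14.2% and 10.8% of all pairs. In mRNA 19 of 52 tested fell and 1 rose, against 6.88% and 4.89% of all genes. BRCA2 and BRCA1, both needed for repair by homologous recombination, held 7 of those 21 members. In BRCA2 a peak of 91 bases in GM (fold enrichment 1.55, short of a false discovery rate of 0.05) paired with one of 1049 bases in DM (4.34) in exon 4 of 20, and in BRCA1 a peak of 61 bases (1.51) paired with one of 808 bases (2.43) in exon 1 of 14. BRCA1 mRNA fell from 4.58 ± 0.63 to 1.43 ± 0.20 FPKM (SD, n = 3 each).

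Sarcomere and Z-disc genes went the other way in mRNA, where 19 of 34 tested rose and none fell (limma; 29 rose and 3 fell at an unadjusted p under 0.05). Their 14 members in 9 genes had a median log2 ratio of −0.26, with 0 higher and 3 lower, against 14.2% and 10.8% of all pairs, and the mRNA count stands against 4.89% of all genes that rose. MYH2, a fast myosin heavy chain gene, measured 0.203, 0.172 and 0.106 FPKM in GM and 1.57, 1.34 and 1.59 FPKM in DM, and its peak in exon 22 of 40 went from 17.4, on a step, to 6.92. The other two pairs were in PALLD, the gene of the actin-bundling protein palladin, at 4.57 and 1.87 in exon 10 and at 3.63 and 1.74 in exon 2 of 22. PALLD mRNA was 48.7, 50.8 and 57.2 FPKM in GM and 54.1, 57.7 and 54.8 FPKM in DM, with overlapping groups (log2 fold change 0.09, SE 0.07, limma adjusted p = 0.317). At 10 FPKM or more, as in PALLD, 30 of 835 members were lower in DM.

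Chromatin regulators, which act on histones and DNA, held the most members of any group, 83 in 59 genes, and members were 56.5% of their 147 shared pairs against 25.5% of all pairs. The share was also above 25.5% in most other lists, such as cytoskeletal linkers (54.4%), ubiquitin ligases (52.2%), DNA replication and repair (48.8%), mitosis (47.8%) and matrix (42.2%). Genes of members had a median length of 34523 bases, against 19824 bases for genes of 3′UTR pairs. The part of gene length and exon number in these shares was not tested. Of the 83 members of chromatin regulators, 3 were higher and 2 lower, with a median log2 ratio of −0.01 and medians of fold enrichment of 2.97 in GM and 2.99 in DM. The histone methyltransferase gene KMT2D held both lower members, with 3.72 and 2.03 in exon 27 and 9.57 and 6.33 from exon 9 of 50, and its peak from exon 44 had 4.00 and 3.49. MGA, a MAX partner, was among the higher with 3.78 and 6.28. Cytoskeletal linkers and spectrins had 43 members in 25 genes, 2 higher and 3 lower, among them TLN2 (2.60 and 5.06), the gene of a talin. Matrix and adhesion genes had 35 members in 26 genes, 2 higher and 4 lower. COL18A1 had a peak of 389 bases in GM and 90 bases in DM in exon 1 of 41, at 3.60 and 1.75, the latter short of a false discovery rate of 0.05, and its mRNA rose from 5.88 ± 0.25 to 10.9 ± 0.75 FPKM (SD, n = 3 each), and FAT3, an atypical cadherin gene, had 8.71, on a step and short of a false discovery rate of 0.05, and 2.93. Signalling genes of growth factors, Notch and Wnt had 18 members in 14 genes, 4 higher and 3 lower, including MTOR (1.49 and 2.48), FGFR1 (4.17 and 2.52 over the same 360 bases) and the Wnt effector TCF7L1 (4.14 and 1.59). Ubiquitin ligases and deubiquitinases had 12 members in 9 genes, 0 higher and 1 lower, the latter in MYCBP2 (2.89 and 1.81).

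Genes of the m6A machinery and of the exon junction complex are too few for their share of calls to be read against the 11.8% of all genes. Of 23 tested genes of the m6A machinery 0 were called in mRNA (limma; 2 higher and 10 lower at an unadjusted p under 0.05), and its 5 members stayed within 1.5-fold. PRRC2A, a reader protein gene, had a long peak from exon 11 of 30, with 4.51 and 5.36 over 3259 bases in GM and 3199 bases in DM. HNRNPC had 2.33 and 2.75, and the demethylase gene FTO had 1.48 and 1.36 in exon 3 of 8. Of 15 tested genes of the exon junction complex and its partners 1 fell and none rose (limma; 2 higher and 4 lower at an unadjusted p under 0.05). ACIN1, a peripheral component, had peaks at 4.69 and 4.01 from exon 1 and at 1.27 and 1.13 in exon 10 of 19, and SMG5, of nonsense-mediated decay, had 2.06 and 2.19 in exon 11 of 22.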

How the data were processed

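The authors aligned reads to ARS-UCD1.2 with HISAT2 and called peaks with exomePeak on the pooled libraries of each group, with annotation by ChIPseeker. The submitters' notes also name cutadapt, fastp, StringTie and HOMER, and the methods name Trimmomatic. Fold enrichment is the deposited ratio of IP over input. The deposited score is an unadjusted p-value, and other deposited columns hold log10 of the p-value and of the false discovery rate as the authors' caller wrote them. FPKM of 18436 genes in the 6 inputs, computed by the authors with StringTie, came as a deposited table. No column was left unmapped (0). The sum of FPKM lay between 415740 and 434458 in the GM inputs and between 386437 and 390827 in the DM inputs. Read depth is not among the values used here. The paper lists the clean reads of each library, the fewest in a GM IP library, and peak lengths and overlaps were not adjusted for them. The precision of a level is therefore the spread of 3 libraries, and that of a peak is unknown.

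Blocks were intersected in Python 3.11.15 with pandas 2.3.3 and numpy 2.4.6, and figures drawn with matplotlib 3.10.9. Members were taken by the gene of the exon annotation, which differed from the listed gene in 87 members, and lay on the other strand in 33. Of the members, 2603 had that gene in the FPKM table. The 2 repeated entries of the DM list were kept. Differences in mRNA were tested with limma 3.58.1 in R 4.3.3, with a variance trend, on log2(FPKM + 1) of genes whose mean FPKM was 0.5 or more, adjusted by Benjamini-Hochberg, and called at an adjusted p under 0.05 and a change over 1.5-fold. A fold change on this scale understates the change of low genes. FPKM are not counts, so no count test was used. The pairing and the fit were tested on simulated data.

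Named genes were the 6 strongest members in both lists with at least 50% of each peak shared, the 10 largest rises and falls, the 5 genes with most members (7 are named because of ties), the 5 highest and 5 lowest mRNA changes among genes with a changed member, and at most 3 members per gene list. The members, gene lists and alternatives were chosen with earlier results of these data known. The steps in fold enrichment, the longest peaks and the split by exon blocks were looked at after the data were seen. No genome of the files' build was used here, so no sequence is shown, and exon lengths and motif content, which had been planned, were not computed.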

Additional observations from a re-analysis of the deposited data

How the results depend on the processing

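Peak values have no replicate error and mRNA rests on 3 libraries per group, so m6A changes are counts of ratios, not tested differences. The median log2 ratio of the members turned from 0.02 to −0.0062 when at least 50% of each peak had to be shared, which pairs the lists anew and leaves 2273 members, to −0.053 after centring on all shared pairs, to −0.024 without members whose blocks could reach the last exon and to −0.099 in members of 1 block. The number of members was 1660 with a fold enrichment of at least 2 in both lists, 1734 without those reaching the last exon and 516 of 1 block. Changed members numbered 216 at a ratio over 2, 350 without those reaching the last exon, 145 of 1 block and 335 without values on a step. These last 3 settings were chosen after seeing the data. Genes called in mRNA at a change over 2-fold were 504 in all and 75 with members. Genes changed in both measures numbered 85 with a pseudocount of 0.1, 21 at an mRNA change over 2-fold, 20 at an m6A ratio over 2, 36 with a fold enrichment of at least 2 and 16 for members of 1 block. Without 1 input library in turn, 1456 to 1505 genes were called in all, 202 to 218 with members and 49 to 58 in both measures.

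Deviations of inputs with the same replicate number correlated at −0.08, −0.12 and −0.21, so no effect shared by replicate number was seen in mRNA. With 3 libraries per group this cannot show whether the replicates were handled in pairs. With the replicate number as a block, 1459 genes were called in all and 215 with members. Of 840 values of 53 named genes under the alternatives, 833 kept their side of the threshold, 2 lost the call and 5 gained it. A change of sign was counted only where a value was past the threshold in either setting, and 0 were found. Some values short of the threshold did change sign, such as that of SOGA1, from −0.04 to 0.07 on the TPM scale. TPM moved the higher share of called member genes from 47.9% to 59.2%, and that of all called genes from 41.6% to 55.1%.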
